A study of Rattus norvegicus with 24 samples.

Results

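Carboxylesterases of families 1 and 2 were followed in rat liver after treatment with 6 compounds. The 5 genes Ces2c, Ces2, Ces2a, Ces1d and Ces1dl1 were taken from 11579 genes tested. Their probes were all those whose array name, older symbol, gene ID or RefSeq record named one of them. For Ces2a and Ces1dl1 the array gave a gene ID in place of a symbol. The genes were selected on their log2 ratios against vehicle in these same arrays, so those ratios are given as a description and carry no test. The array held 9 such probes with 6 distinct sequences, and all 9 lay well above background in both dyes on all 24 arrays with none saturated.

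Carboxylesterases are serine hydrolases of the endoplasmic reticulum that split ester, thioester and amide bonds of drugs, pesticides and lipids. Family 2 enzymes prefer substrates with a small acyl group and a large alcohol group, and family 1 enzymes prefer the reverse. Both families are abundant in rodent liver, where family 1 members also turn over stored triacylglycerol and several family 2 genes are known to respond to the xenobiotic receptors CAR and PXR.

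The rats were male F344, an inbred strain, 5 weeks old per the labels, and received daily gavage for 28 days in a volume of 5 ml/kg. The daily dose per kg was 500 mg of hexachloroethane, 50 mg of 1,2,3-trichloropropane, 150 mg of 1-amino-2-methylanthraquinone, 250 mg of 3-(4-chlorophenyl)-1,1-dimethylurea (the herbicide monuron), 300 mg of 1,2-dichlorobenzene or 1000 mg of the antibiotic tetracycline hydrochloride. The design calls the first 4 compounds carcinogens and the last 2 non-carcinogens. Tetracycline hydrochloride was given in water and the others in corn oil, with 4 rats each. The liver RNA of each treated rat was hybridised in Cy3 against a Cy5-labelled pool of vehicle-treated rats on a 2-colour Agilent array, so each ratio is 1 treated rat over the pool. Per the labels, each compound had its own pooled control group. A pool counts as 1 control sample, its own spread enters no value, and no array had the dyes swapped. A difference between compounds therefore also holds a difference between pools, and the 2 cannot be told apart. Each compound filled a separate slide, and a slide effect cannot be told apart from a compound effect. Hexachloroethane and tetracycline hydrochloride were scanned on day 1, 1-amino-2-methylanthraquinone on day 2, 1,2,3-trichloropropane on day 3, and monuron and 1,2-dichlorobenzene on day 4. All 8 hepatocyte markers listed were well above background in the vehicle channel of every array. In whole liver, fewer cells of a type and less RNA per cell cannot be told apart.

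The member probes are shown because 2 pairs of them share bases, which bears on how many transcripts the 5 names stand for. Capitals mark the stretch in which the end of one probe is the start of the other, and lower case marks the rest. Each sequence is the array's own, 5′ to 3′.
Ces2 probe 1: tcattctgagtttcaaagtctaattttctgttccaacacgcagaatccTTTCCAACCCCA
Ces2c probe 1: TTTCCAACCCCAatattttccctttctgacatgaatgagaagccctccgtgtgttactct
Ces1d probe 1: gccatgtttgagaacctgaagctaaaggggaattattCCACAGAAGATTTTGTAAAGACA
Ces1d probe 3: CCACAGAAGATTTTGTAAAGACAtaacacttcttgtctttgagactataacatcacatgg
Ces2a probe 1: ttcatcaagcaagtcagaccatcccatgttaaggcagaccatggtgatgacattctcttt
Ces1dl1 probe 1: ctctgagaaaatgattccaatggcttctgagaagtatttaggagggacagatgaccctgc

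The last 12 bases of the probe named Ces2 are the first 12 bases of the probe of the Ces2c RefSeq record. Among 21333 distinct probe sequences on the array, only these 2 hold that run. In the RefSeq table of the rat assembly GRCr8, Ces2 is the current symbol of a gene on chromosome 19 and also an older symbol of Ces2c on chromosome 1 and of Ces2h on chromosome 19. The array therefore does not settle which of these genes the probes named Ces2 report, and their values are treated as a second reading beside Ces2c, not as an independent gene. Both Ces1d probes carry the older name Ces3 and overlap by 23 bases. Ces1d, Ces1dl1 and Ces2a lie on chromosome 19, and the table lists Ces2a, an older symbol of which is Ces6, as a transcribed pseudogene. No other pair of distinct member probes shared more than 7 bases in a row. Ces2 probe 2, Ces2a probe 2 and Ces1d probe 2 repeat the sequence of probe 1 of the same gene. A gene is given below by its brightest probe, probe 1.

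Ces2c, a family 2 esterase, was highest under hexachloroethane. The log2 ratio of treated rat over vehicle was 2.64, 2.20, 2.75 and 2.98 in the 4 hexachloroethane rats. Under 1,2,3-trichloropropane it was 0.37, 0.20, 0.29 and 0.12. The lowest hexachloroethane rat thus lay far above every 1,2,3-trichloropropane rat. Under 1-amino-2-methylanthraquinone the ratio was 1.66, 1.52, 1.13 and 1.53. Monuron gave 1.04, 1.35, 1.23 and 1.08, which overlapped the range of 1-amino-2-methylanthraquinone. Values under 1,2-dichlorobenzene were 0.85, 0.71, 0.48 and 0.17. The tetracycline hydrochloride rats had 0.49, 0.04, 0.24 and -0.23, the only group with a rat on either side of 0.

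**Figure D1:**
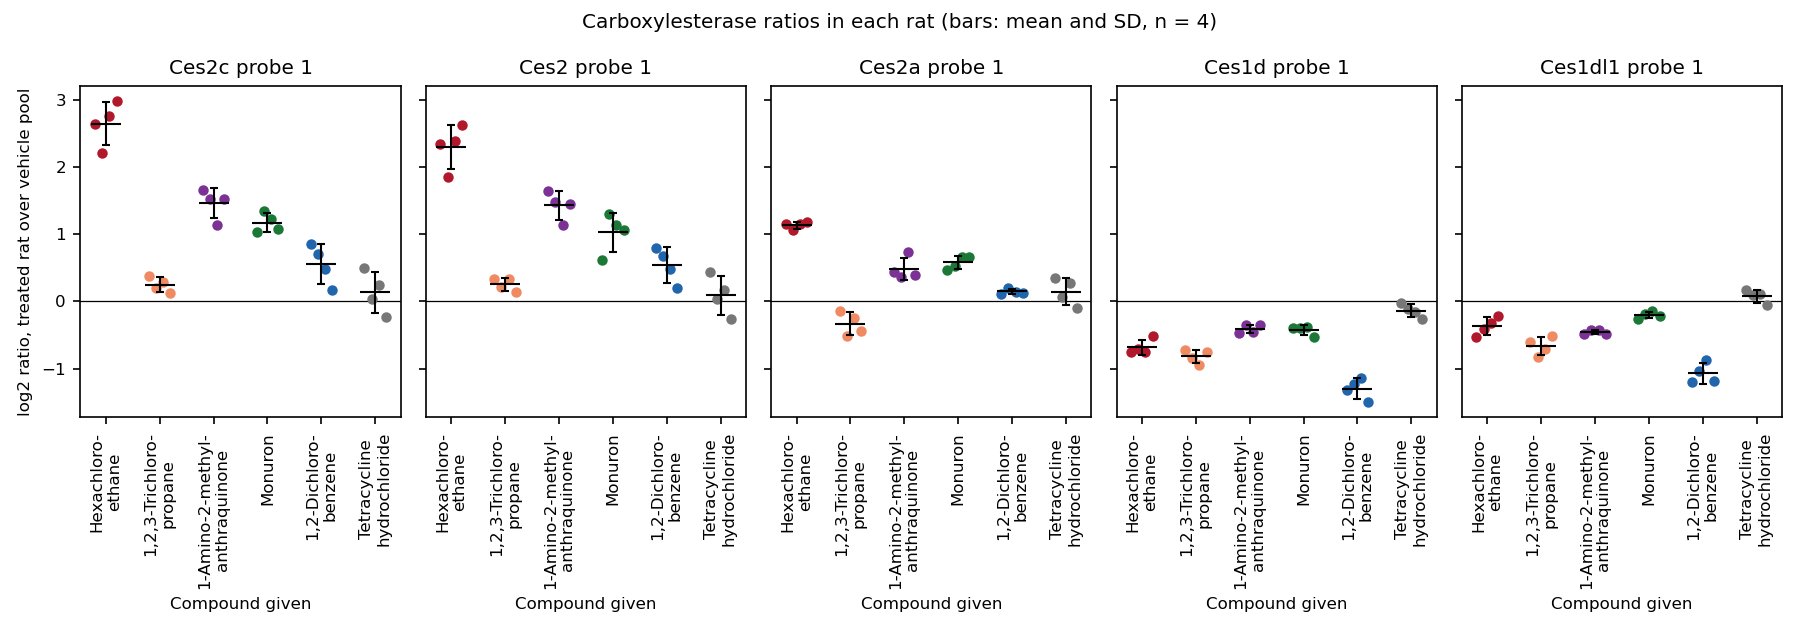
Log2 ratio of each treated rat over the vehicle pool (vertical axis) by compound (horizontal axis) for the brightest probe of each gene; points are rats, and bars are mean and SD (n = 4). Ces2c and Ces2 have their highest points under hexachloroethane (mean 2.65 and 2.30), whereas Ces1d and Ces1dl1 have their lowest under 1,2-dichlorobenzene (mean -1.30 and -1.07).

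The mean of Ces2c was 2.65 ± 0.33 under hexachloroethane (SD, n = 4 here and for each mean below), a 6.26-fold ratio and rank 4 from the top of all genes under that compound. It was 1.46 ± 0.23 under 1-amino-2-methylanthraquinone (2.76-fold) and 1.17 ± 0.14 under monuron (2.25-fold). The means were 0.55 ± 0.30 under 1,2-dichlorobenzene, 0.25 ± 0.11 under 1,2,3-trichloropropane and 0.13 ± 0.31 under tetracycline hydrochloride. In descending order, hexachloroethane stood clear of 1-amino-2-methylanthraquinone, and the ranges of 1-amino-2-methylanthraquinone and monuron overlapped. Monuron stood clear of 1,2-dichlorobenzene. The ranges of 1,2-dichlorobenzene, 1,2,3-trichloropropane and tetracycline hydrochloride overlapped each other. The ranges were separate in 11 of the 15 pairs of compounds. Over all genes, 31.5% of the 173685 combinations of a gene with a pair of compounds had separate ranges.

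The signals behind these ratios differed between compounds mainly in the treated channel. On the hexachloroethane arrays the processed signal of the Ces2c probe ran from 19714 to 30940 in treated rats, against 3628 to 4015 in the vehicle pool. On the 1,2,3-trichloropropane arrays it ran from 2413 to 2713 in treated rats, against 1998 to 2286 in the vehicle pool. The vehicle channel itself thus differed between arrays of different slides, which is why ratios within an array are compared here.

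**Figure D2:**
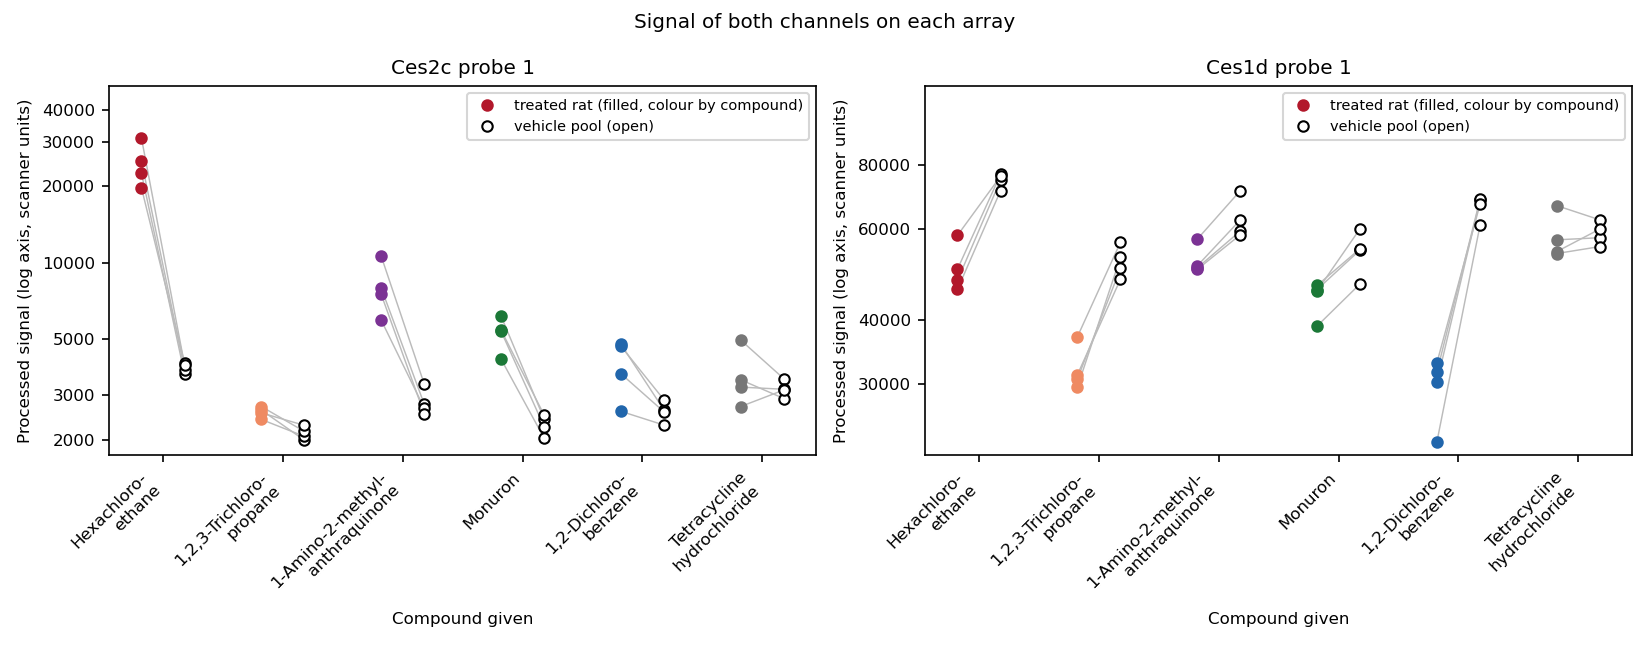
Processed signal in scanner units on a log axis for the Ces2c and Ces1d probes, with the treated rat (filled) left of the vehicle pool (open) and a line joining the channels of 1 array. On the hexachloroethane arrays the Ces2c signal was 19714 to 30940 in treated rats and 3628 to 4015 in the pool, and on the 1,2-dichlorobenzene arrays the Ces1d signal was 23083 to 32932 in treated rats and 61052 to 68582 in the pool.

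The probes named Ces2 followed Ces2c rat by rat. Ces2 probe 1 had log2 ratios of 2.35, 1.85, 2.39 and 2.62 under hexachloroethane, and 1.64, 1.48, 1.14 and 1.45 under 1-amino-2-methylanthraquinone. Under monuron it had 0.62, 1.30, 1.13 and 1.06. The low first monuron rat read 0.90 on Ces2 probe 2, which has the same sequence, and that array had 74 spots marked as outliers, the most of any array. The means were 2.30 ± 0.33 under hexachloroethane, 1.43 ± 0.21 under 1-amino-2-methylanthraquinone and 1.03 ± 0.29 under monuron. The remaining means were 0.54 ± 0.26 under 1,2-dichlorobenzene, 0.25 ± 0.09 under 1,2,3-trichloropropane and 0.09 ± 0.29 under tetracycline hydrochloride. Over the 24 rats, Pearson's r between Ces2c and Ces2 probe 1 was 0.99, a description of points that share arrays, compounds and possibly a transcript. Ces2c exceeded Ces2 probe 1 by 0.34 on average in the hexachloroethane rats and by 0.10 over all rats.

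Ces2a, known in mouse as a gene that responds to CAR and PXR, had its highest ratios under hexachloroethane at 1.15, 1.06, 1.15 and 1.17. It was the only one of the 3 family 2 names with all 4 rats below 0 under 1,2,3-trichloropropane, at -0.14, -0.51, -0.24 and -0.44. The 2 groups were separate, and the hexachloroethane rats lay close together. Under 1-amino-2-methylanthraquinone it had 0.44, 0.37, 0.73 and 0.39. Monuron rats had 0.46, 0.53, 0.66 and 0.67, and these 2 ranges overlapped. The 1,2-dichlorobenzene rats had 0.11, 0.21, 0.14 and 0.13, and the tetracycline hydrochloride rats had 0.34, 0.06, 0.28 and -0.10.

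As means, Ces2a was 1.13 ± 0.05 under hexachloroethane (2.19-fold) and -0.33 ± 0.17 under 1,2,3-trichloropropane (0.793-fold). It averaged 0.58 ± 0.10 under monuron, 0.48 ± 0.17 under 1-amino-2-methylanthraquinone, 0.15 ± 0.04 under 1,2-dichlorobenzene and 0.15 ± 0.20 under tetracycline hydrochloride. As for Ces2c, hexachloroethane was highest, but the lowest compound was 1,2,3-trichloropropane and not tetracycline hydrochloride. Ranges were separate in 13 of 15 pairs of compounds, against 31.5% of such pairs over all genes. Pearson's r between Ces2a and Ces2c was 0.89 over 24 rats that share compounds and slides.

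Ces1d, a family 1 esterase that in mouse hydrolyses stored triacylglycerol in hepatocytes, lay below vehicle in all 24 rats on probe 1 after loess. By the scanner log ratio, the first tetracycline hydrochloride rat read 0.09 on that probe. With no dyes swapped, a dye effect of the probe cannot be told apart from a fall shared by all compounds. The Ces1d ratios under 1,2-dichlorobenzene were -1.32, -1.23, -1.14 and -1.50. Under 1,2,3-trichloropropane they were -0.73, -0.84, -0.95 and -0.76, all above the 1,2-dichlorobenzene rats. The hexachloroethane rats had -0.75, -0.71, -0.76 and -0.51, a range that overlapped those of 1,2,3-trichloropropane and monuron. Under 1-amino-2-methylanthraquinone the ratios were -0.48, -0.36, -0.45 and -0.35. Monuron gave -0.40, -0.39, -0.38 and -0.53. Tetracycline hydrochloride rats stood closest to vehicle at -0.03, -0.11, -0.16 and -0.26.

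The mean of Ces1d was -1.30 ± 0.15 under 1,2-dichlorobenzene, 0.407 of the vehicle level, and the means of the other compounds ran from -0.82 ± 0.10 under 1,2,3-trichloropropane to -0.14 ± 0.10 under tetracycline hydrochloride. Between those stood -0.68 ± 0.11 under hexachloroethane, -0.43 ± 0.07 under monuron and -0.41 ± 0.06 under 1-amino-2-methylanthraquinone. The processed signal of Ces1d probe 1 on the 1,2-dichlorobenzene arrays was 23083 to 32932 in treated rats, against 61052 to 68582 in the vehicle pool. The overlapping Ces1d probe 3 gave -1.18 ± 0.16 under 1,2-dichlorobenzene, and 0.03 ± 0.13 under tetracycline hydrochloride, where its rats lay on both sides of 0. Ranges of probe 1 were separate in 12 of 15 pairs of compounds, against 31.5% of such pairs over all genes.

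Ces1dl1 probe 1 and Ces1d probe 3 carry the same cluster record on the array although their sequences share no more than 5 bases in a row, so the array does not settle that they report separate genes. Ces1dl1 had -1.20, -1.04, -0.87 and -1.18 under 1,2-dichlorobenzene, the lowest group. The 1,2,3-trichloropropane rats had -0.61, -0.83, -0.71 and -0.51. The remaining groups lay nearer to vehicle, from -0.53 to -0.21 under hexachloroethane, from -0.49 to -0.43 under 1-amino-2-methylanthraquinone, from -0.26 to -0.14 under monuron and from -0.06 to 0.17 under tetracycline hydrochloride. The mean was -1.07 ± 0.15 under 1,2-dichlorobenzene (0.475 of the vehicle level), -0.66 ± 0.13 under 1,2,3-trichloropropane, -0.46 ± 0.03 under 1-amino-2-methylanthraquinone and -0.37 ± 0.13 under hexachloroethane. It was -0.20 ± 0.05 under monuron and 0.08 ± 0.10 under tetracycline hydrochloride. Ranges were separate in 12 of 15 pairs of compounds, against 31.5% of such pairs over all genes. Pearson's r of Ces1dl1 over the 24 rats was 0.94 with Ces1d probe 1 and 0.96 with Ces1d probe 3. These points share arrays, compounds and possibly a transcript.

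Ces2c and Ces1d did not run together across rats. Pearson's r between them was 0.06 over 24 rats. For the other member pairs across the families, r ran from 0.05 (Ces2 with Ces1d) to 0.30 (Ces2a with Ces1dl1). Ces2c minus Ces1d, a difference of log2 ratios within each rat, was 3.33 ± 0.28 under hexachloroethane, 1.87 ± 0.23 under 1-amino-2-methylanthraquinone and 1.85 ± 0.25 under 1,2-dichlorobenzene. It was 1.60 ± 0.12 under monuron, 1.06 ± 0.15 under 1,2,3-trichloropropane and 0.27 ± 0.23 under tetracycline hydrochloride. Under 1-amino-2-methylanthraquinone and 1,2-dichlorobenzene the gap was thus of like size, at 1.46 for Ces2c and -0.41 for Ces1d under the first, and 0.55 and -1.30 under the second. Relative to all genes with median centring, Ces2c and Ces1d were 1.11 and -1.22 under 1-amino-2-methylanthraquinone, so their shares of the gap depended on the scaling. Because the difference is taken within 1 array, it shows unequal change and not which gene stayed level.

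**Figure D3:**
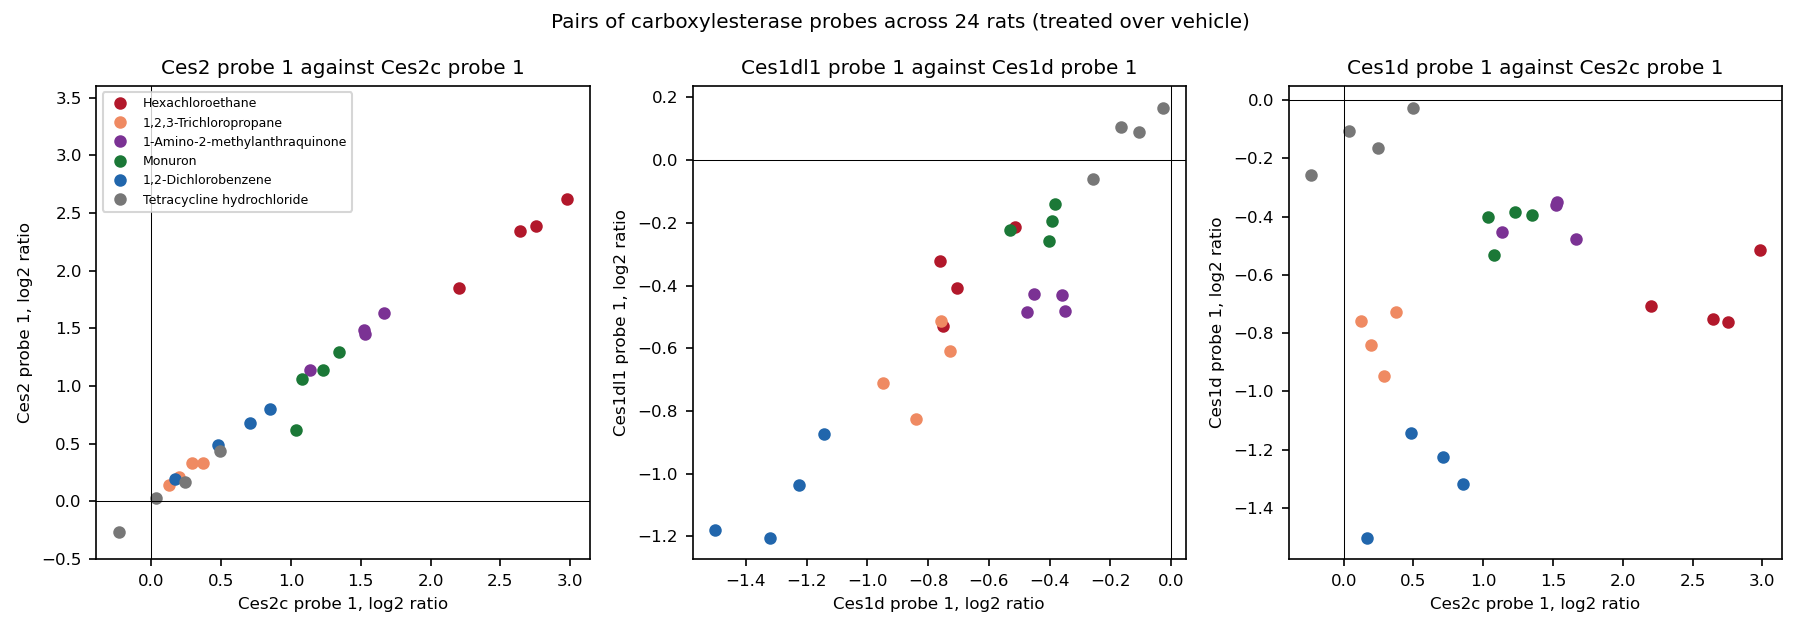
Log2 ratios (treated over vehicle) of 3 pairs of probes, each point 1 of 24 rats coloured by compound. Ces2 lies along Ces2c (r = 0.99) and Ces1dl1 along Ces1d (r = 0.94), while Ces1d against Ces2c follows no line (r = 0.06), with the monuron and 1-amino-2-methylanthraquinone rats mixed.

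Spots of the same sequence were compared within each array. The median SD between spots of the same sequence on an array was 0.036 for Ces2c, 0.024 for Ces2, 0.023 for Ces2a, 0.051 for Ces1d probes 1 and 2, and 0.011 for Ces1dl1. The highest on any array was 0.30 for Ces2 and 0.33 for Ces1d probes 1 and 2. The SD between rats of a compound reached 0.33 for Ces2 and 0.15 for Ces1d. On single arrays, spots of Ces1d thus differed more than rats of a compound did. Spots marked as outliers were included in this comparison of spots. The difference between probes of identical sequence had an SD over rats of 0.063 for Ces2, 0.021 for Ces2a and 0.076 for Ces1d.

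In the fit over all genes (limma, Benjamini-Hochberg adjusted p under 0.05 and at least 2-fold), 839 of 69474 gene and compound pairs were called against vehicle, 1.21% of them, 427 higher and 412 lower. Among the 30 pairs of the 5 esterases, 9 were called. These were Ces2c and Ces2 higher under hexachloroethane, 1-amino-2-methylanthraquinone and monuron, Ces2a higher under hexachloroethane, and Ces1d and Ces1dl1 lower under 1,2-dichlorobenzene. Over all pairs, 0.615% were called higher and 0.593% lower. By compound, the share of all genes called was 0.898% for hexachloroethane, 0.933% for 1,2,3-trichloropropane, 2.12% for 1-amino-2-methylanthraquinone, 1.4% for monuron, 1.61% for 1,2-dichlorobenzene and 0.285% for tetracycline hydrochloride. The genes were chosen with these contrasts known, so nothing is read from the count. Against the mean of the other 5 compounds, 4 of the 30 pairs were called. Ces2c was 1.93 and Ces2 was 1.63 under hexachloroethane (0.639% of all genes called), and they were -1.08 and -1.02 under tetracycline hydrochloride (0.57%). None was called under 1,2,3-trichloropropane (0.415%), 1-amino-2-methylanthraquinone (1.29%), monuron (0.613%) or 1,2-dichlorobenzene (0.535%). The Ces2 call under tetracycline hydrochloride was lost without any 1 of the fourth hexachloroethane, the second monuron, or the second or the fourth tetracycline hydrochloride rat, each time just short of 2-fold except in the last case, at -0.90. That of Ces2c was lost without the fourth tetracycline hydrochloride rat, at -0.96. With median centring both tetracycline hydrochloride calls were lost and both hexachloroethane calls were kept. Ces2 under monuron was 2.04-fold, and without the second or the third monuron rat its log2 ratio was 0.94 or 0.99 and not called. Without background correction it was 0.88 and Ces1dl1 under 1,2-dichlorobenzene was -0.93, and both calls were lost.

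The ratios against vehicle depended on how the dyes were scaled. With each array centred on its median in place of loess, the median over all genes shifted to between -0.33 and -0.21 by compound and the split of calls became 303 higher and 2989 lower. Relative to that median, Ces2c was 2.27 under hexachloroethane, 1.11 under 1-amino-2-methylanthraquinone and 0.94 under monuron. Ces2a was 0.67 under hexachloroethane and -0.62 under 1,2,3-trichloropropane. Ces1d was -1.80 under 1,2-dichlorobenzene and from -1.39 to -0.62 under the other compounds, and Ces1dl1 was -1.21 under 1,2-dichlorobenzene. Before that shift was taken off, 9 pairs of esterases were again called, but not the same ones. Ces2c and Ces2 fell short of 2-fold under 1-amino-2-methylanthraquinone (0.78 and 0.85) and monuron (0.68 and 0.63), as did Ces2a under hexachloroethane (0.35). Ces1d passed it also under hexachloroethane (-1.67), 1,2,3-trichloropropane (-1.66), 1-amino-2-methylanthraquinone (-1.56) and monuron (-1.32), and Ces1dl1 also under 1,2,3-trichloropropane (-1.11). On the same scale the sign turned for Ces2c and Ces2 under 1,2,3-trichloropropane and tetracycline hydrochloride, for Ces2a under 1-amino-2-methylanthraquinone, 1,2-dichlorobenzene and tetracycline hydrochloride, and for Ces1dl1 under tetracycline hydrochloride. None of the pairs that changed sign had been called after loess.

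Compounds scanned on the same day were set against each other, since scan day does not differ between them. A dye effect alike on all arrays cancels there, as in any difference of 2 compounds, but the vehicle pools differ per the labels. Hexachloroethane minus tetracycline hydrochloride was 2.51 for Ces2c, 2.21 for Ces2, 0.99 for Ces2a, -0.54 for Ces1d and -0.44 for Ces1dl1. The Ces2c and Ces2 differences passed the threshold that 0.803% of all genes passed, but they come from the ratios on which the genes were selected, so nothing is read from this. The vehicle of these 2 compounds also differed. Ces2a was called when any 1 of the second hexachloroethane rat, the first or the third tetracycline hydrochloride rat was left out, at 1.01, 1.05 and 1.03. Monuron minus 1,2-dichlorobenzene, both in corn oil, was 0.62 for Ces2c, 0.49 for Ces2, 0.43 for Ces2a, 0.87 for Ces1d and 0.87 for Ces1dl1. None of these 5 was called, where 0.985% of all genes were.

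The compounds fall into 4 carcinogens and 2 non-carcinogens by the design. The difference of class means, carcinogens minus non-carcinogens, was 1.04 for Ces2c, 0.94 for Ces2, 0.32 for Ces2a, 0.13 for Ces1d and 0.08 for Ces1dl1. Limma with compound as a random block called 0 of the 5 genes and 0 of 11579 genes (0%). At an unadjusted p under 0.05 it held 191 of the 11579 genes, and 184 with a trend and robust prior. Of these 191 genes, 2 were esterases. The esterases were selected on these same ratios, so nothing is read from that count. The class means hide the spread, since 1,2,3-trichloropropane, a carcinogen, overlapped both non-carcinogens for Ces2c.

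Other carboxylesterases were on the array too. Ces1c and Ces1e, both family 1 members on chromosome 19, and Ces2e, a family 2 member, were measured and none was called under any compound at 2-fold. Ces1c was 0.45 ± 0.07 under monuron (adjusted p = 1.81e-05, limma), 0.34 ± 0.09 under tetracycline hydrochloride (adjusted p = 0.000416) and -0.34 ± 0.19 under 1,2-dichlorobenzene (adjusted p = 0.000266). Its low value under 1,2-dichlorobenzene had the sign of Ces1d and Ces1dl1 there, but its value under monuron had the other sign. A second set of ratios for Ces1c gave -0.10 under 1,2-dichlorobenzene, 0.64 under monuron and 0.54 under tetracycline hydrochloride. The signs were the same, but the size of the fall under 1,2-dichlorobenzene is thus not settled. Ces1e stayed between -0.16 and 0.10 in the means of all 6 compounds. Ces2e was 0.32 ± 0.65 under hexachloroethane (adjusted p = 0.132), and its probe was well above background in treated rats on 22 of 24 arrays.

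**Figure D4:**
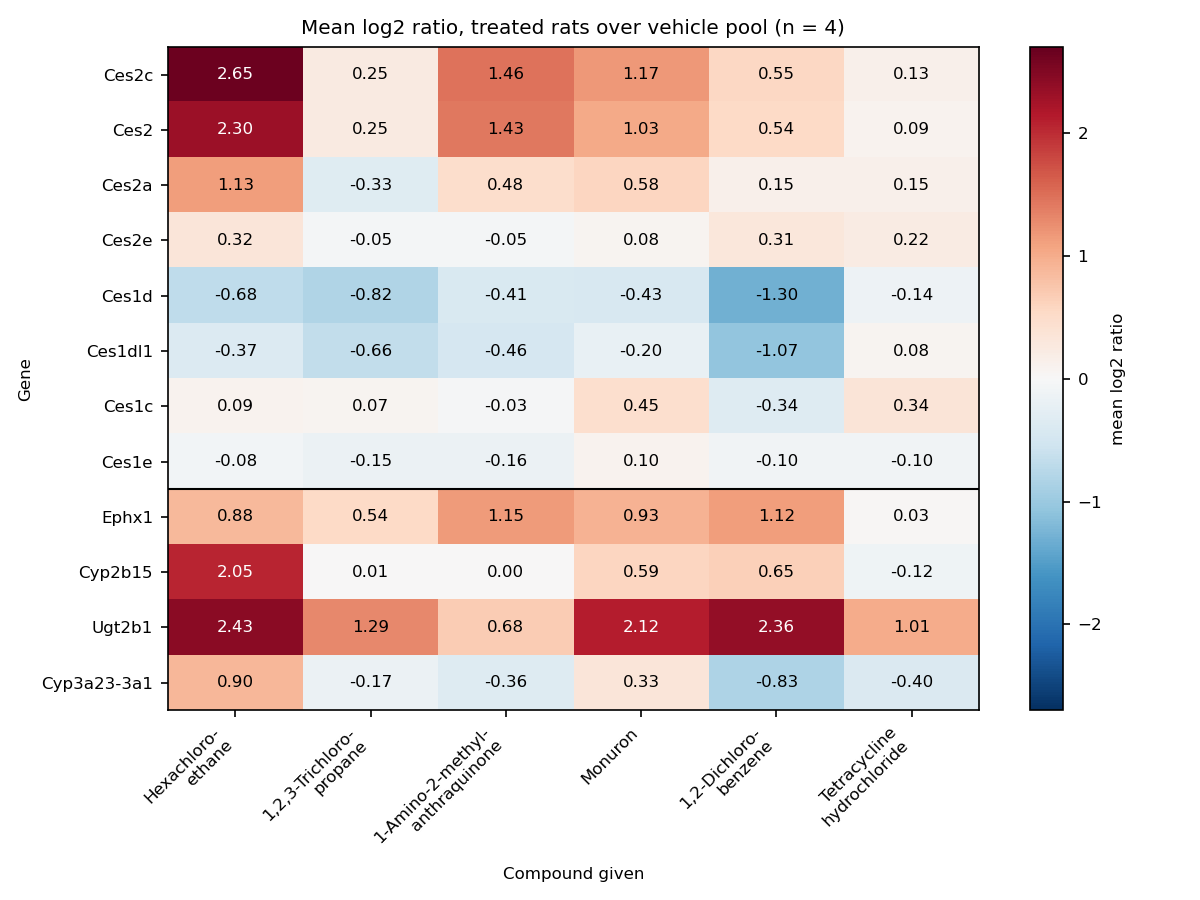
Mean log2 ratio of treated rats over the vehicle pool (n = 4 rats per cell) for the measured carboxylesterases above the line and 4 other genes of xenobiotic metabolism below it. Under hexachloroethane Ces2c (2.65), Cyp2b15 (2.05) and Ugt2b1 (2.43) were high together, whereas under 1-amino-2-methylanthraquinone Ces2c was 1.46 with Cyp2b15 at 0.00.

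Of 41 listed genes of other esterases and ester, lipid or epoxide hydrolases, 18 were measured. Their medians lay between -0.13 and 0.08 by compound, against -0.02 to -0.01 over all genes. Ephx1, the microsomal epoxide hydrolase, was the only one called. It rose under 1-amino-2-methylanthraquinone by 1.15 ± 0.31 (adjusted p = 1.95e-09, limma), where 1.25% of all genes were called higher, and under 1,2-dichlorobenzene by 1.12 ± 0.28 (adjusted p = 3.74e-09), where 0.777% were. Short of 2-fold, it was 0.93 ± 0.14 under monuron (adjusted p = 9.74e-08) and 0.88 ± 0.11 under hexachloroethane (adjusted p = 1.79e-07). It was 0.54 ± 0.15 under 1,2,3-trichloropropane (adjusted p = 9.08e-05) and 0.03 ± 0.04 under tetracycline hydrochloride (adjusted p = 0.815). With median centring its ratio under 1-amino-2-methylanthraquinone was -0.17 (adjusted p = 0.187) and under 1,2-dichlorobenzene 0.21 (adjusted p = 0.118), and without the first 1-amino-2-methylanthraquinone rat it was 1.00 and just under 2-fold. Under 1,2-dichlorobenzene, where Ephx1 was called higher, Ces2c averaged 0.55 and was not called.

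CAR and PXR are nuclear receptors that switch on drug metabolism genes when foreign compounds reach the liver. Of 32 listed genes under their control, 26 were measured. Hexachloroethane had 5 higher and 0 lower (0.475% of all genes higher, 0.423% lower), and monuron 4 higher and 1 lower (0.734% and 0.665%). The count under 1-amino-2-methylanthraquinone was 3 higher and 2 lower (1.25% and 0.872%), and under 1,2-dichlorobenzene 5 higher and 1 lower (0.777% and 0.829%). 1,2,3-Trichloropropane had 2 higher and 1 lower (0.294% and 0.639%), and tetracycline hydrochloride 2 higher and 0 lower (0.155% and 0.13%). The list's median was 0.60 under hexachloroethane and 0.31 under monuron, and between -0.07 and 0.10 under the others, against -0.02 to -0.01 over all genes.

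By their means, the genes named here differed from Ces2c in their order of compounds. Cyp2b15, a cytochrome P450 of the CAR-responsive family 2B, rose by 2.05 ± 0.13 under hexachloroethane (adjusted p = 2.99e-13). It was 0.00 ± 0.26 under 1-amino-2-methylanthraquinone (adjusted p = 0.966), where Ces2c averaged 1.46. Cyp2b3, of the same family, was -0.10 ± 0.07 under hexachloroethane (adjusted p = 0.0981, limma). The textbook CAR genes Cyp2b1 and Cyp2b2 were listed but had no value. Cyp2c6v1, a cytochrome P450 of family 2C, rose by 2.08 ± 0.15 under hexachloroethane (adjusted p = 1.54e-12) and by 1.29 ± 0.14 under monuron (adjusted p = 2.33e-09), though median centring took it to 0.95 and 0.27 and below 2-fold. Ugt2b1, which couples glucuronic acid to drugs and steroids, rose by 2.43 ± 0.14 under hexachloroethane (adjusted p = 5.28e-13) and by nearly as much, 2.36 ± 0.21, under 1,2-dichlorobenzene (adjusted p = 3.05e-13). Abcc3, a basolateral export pump, rose by 1.35 ± 0.21 under 1-amino-2-methylanthraquinone (adjusted p = 1.49e-10), and with median centring by 0.84, under 2-fold. After loess it was also called higher under hexachloroethane (1.32 ± 0.34), 1,2-dichlorobenzene (1.26 ± 0.17) and monuron (1.15 ± 0.11). The ranges of rats under these compounds overlapped, so their order for Abcc3 is not settled. Gsta3, a glutathione transferase, rose by 5.25 ± 0.06 under monuron (adjusted p = 1.51e-11), more than by 2.38 ± 0.13 under hexachloroethane (adjusted p = 7.84e-07), the reverse of Ces2c.

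Among the genes that fell, Cyp3a9, a cytochrome P450, was -3.91 ± 0.51 under 1-amino-2-methylanthraquinone (adjusted p = 3.78e-11) and -3.26 ± 0.49 under 1,2-dichlorobenzene (adjusted p = 8.11e-10). Sult2a1, a sulfotransferase of steroids and bile acids, was -1.53 ± 0.97 under 1-amino-2-methylanthraquinone (adjusted p = 1.28e-05), but -0.65 and under 2-fold as the mean of its probes. Cyp3a23-3a1, the textbook PXR gene of the rat, was not called at 2-fold under any compound. It was 0.90 ± 0.21 under hexachloroethane (adjusted p = 1.15e-05) and -0.83 ± 0.22 under 1,2-dichlorobenzene (adjusted p = 1.9e-05), the compounds at which Ces2c and Ces1d had their extremes.

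Regulators of these genes were mostly not called. Of 22 listed regulators, 21 were measured, and 2 were called. The listed regulator without a value was Nr1i2, which encodes PXR. Nr1i3, which encodes CAR, was -0.39 ± 0.08 under monuron (adjusted p = 2.77e-07, under 2-fold) and between -0.15 and 0.08 under the others. Nr0b2, a corepressor that limits bile acid synthesis, was called higher under hexachloroethane at 1.26 ± 1.04 (adjusted p = 0.0096; 0.475% of all genes). Its rats ran from -0.14 to 2.12, and the call was lost without the first or the third rat (adjusted p = 0.0716 and 0.0738) and with median centring (0.75, adjusted p = 0.0702). Foxa2, a liver transcription factor, was called higher under 1,2,3-trichloropropane at 1.15 ± 0.50 (adjusted p = 0.00139; 0.294%), where no esterase was called. Without the fourth rat Foxa2 was 1.00 and just under 2-fold, and with median centring it was 0.62. List medians lay between -0.10 and 0.00, against -0.02 to -0.01 over all genes.

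Marker genes of cell types moved in some of the same groups. The 8 hepatocyte markers averaged -0.64 under 1,2-dichlorobenzene, where Ces1d and Ces1dl1 were lowest. They ran from -1.25 to 0.14 there, with 2 of 8 called lower (0.829% of all genes). They averaged between -0.47 and -0.35 under the other compounds, each with 1 of 8 called lower (0.13% to 0.872% of all genes). The highest of the 8 lay above vehicle under every compound, at up to 0.94 under monuron. Of 4 bile duct markers, 3 were called higher under 1-amino-2-methylanthraquinone (1.25% of all genes), at a list mean of 1.32 and values from -0.03 to 2.11. Under the other compounds 0 of 4 were called higher (0.155% to 0.777% of all genes), with means between -0.02 and 0.22. Among 4 markers of Kupffer cells and macrophages, 1 was called higher under monuron (0.734% of all genes), at a list mean of 0.45 and values from 0.18 to 1.07. Intestinal epithelium, a site of family 2 esterases, had 1 of 2 markers called higher under 1,2-dichlorobenzene (0.777% of all genes), at a mean of 0.56. Under hexachloroethane 0 of 2 were called higher (0.475%), at a mean of 0.44. The 2 markers differed, at -0.06 and 1.18 under 1,2-dichlorobenzene and at -0.07 and 0.94 under hexachloroethane. The part of these cell types in the esterase ratios was not tested.

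The genes most like each esterase across the 24 rats were sought among 4688 genes with a symbol. These are descriptions of points that share arrays and compounds. Ces2c was most like Gaa (r = 0.91), the lysosomal acid alpha-glucosidase, Psma7 (r = 0.91), a subunit of the proteasome core, and Cltb (r = 0.90), a clathrin light chain. Ces2 was most like Gaa (r = 0.91), Psma7 (r = 0.89) and Psmb3 (r = 0.89). Ces2a was most like the proteasome subunits Psma2 (r = 0.94), Psma5 (r = 0.93) and Psma7 (r = 0.93). Gaa averaged 0.95 ± 0.15 under hexachloroethane and -0.01 ± 0.09 under tetracycline hydrochloride. Psma5 averaged 0.79 ± 0.05 under hexachloroethane and -0.06 ± 0.10 under 1,2,3-trichloropropane, the compound at which Ces2a was lowest.

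For family 1 the like genes were others. Ces1d was most like Icoslg (r = 0.85), a ligand of T-cell costimulation, Oat (r = 0.84), the mitochondrial ornithine aminotransferase, and Slc1a2 (r = 0.84), a glutamate transporter. Ces1dl1 was most like Inmt (r = 0.91), a methyltransferase of indole amines, Slc13a3 (r = 0.88), a carrier of dicarboxylates, and Lyc2 (r = 0.87), a lysozyme. Inmt averaged -4.69 ± 0.22 under 1,2-dichlorobenzene and -0.05 ± 0.33 under tetracycline hydrochloride. Oat averaged -3.72 ± 0.61 under 1,2-dichlorobenzene and -0.19 ± 0.16 under tetracycline hydrochloride.

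The 250 bases before the start of Ces2c and Ces2 are shown because both genes are candidate sources of the signal of the probes named Ces2. RefSeq promoters of GRCr8 were found for 4 of the 5 genes, all but Ces2a. They were searched on both strands for AGGTCA and AGTTCA, half-sites of nuclear receptor elements, TGACNNNGC, the core of antioxidant response elements, and GCGTG, the core of dioxin response elements. None of these motifs matched at overlapping bases in the 4 promoters. Capitals mark matches. Ces2c is chr1:270376951-270377200 on the plus strand and Ces2 is chr19:62579-62828 on the minus strand, each printed 5′ to 3′ along the gene.
Ces2c upstream: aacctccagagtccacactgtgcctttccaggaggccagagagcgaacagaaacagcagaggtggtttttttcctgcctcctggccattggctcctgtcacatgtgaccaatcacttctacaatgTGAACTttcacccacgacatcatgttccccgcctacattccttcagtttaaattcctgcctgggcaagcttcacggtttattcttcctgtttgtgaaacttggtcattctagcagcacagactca
Ces2 upstream: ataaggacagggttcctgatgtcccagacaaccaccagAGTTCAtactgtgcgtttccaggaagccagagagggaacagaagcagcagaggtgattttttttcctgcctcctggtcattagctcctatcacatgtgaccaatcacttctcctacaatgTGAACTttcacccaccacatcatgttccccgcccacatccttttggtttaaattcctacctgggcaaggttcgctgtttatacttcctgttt

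AGTTCA matched once before Ces2c, from position -125 to -120 relative to the start on the minus strand. Before Ces2 it matched at -212 to -207 and at -92 to -87. It was present in 12.2% of 33469 rat promoters of this length. GCGTG, present in 25.9% of promoters, matched before Ces1d at -135 to -131. AGGTCA (14.1%) and TGACNNNGC (10.1%) matched in none of the 4, which says only that these letters are not in the windows. The longest run shared by the Ces2c and Ces2 promoters was 23 bases, and that shared by Ces1d and Ces1dl1 was 50 bases, whereas no pair across the families shared more than 9.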

How the data were processed

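Agilent 2-colour arrays of 24 rat livers were read with Agilent Feature Extraction 9.1.3.1, per the submitters' processing notes. The scanner files gave mean and background intensity of both dyes per spot and a log10 log ratio, per the file headers. The deposited series table held a log2 ratio, which correlated positively with the turned scanner ratios of the same arrays and so runs treated over vehicle. Its column medians were -0.01 to 0.08, and its centring is not known.

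Intensities were background corrected by normexp (offset 50) and scaled by loess within arrays in limma 3.58.1 (R 4.3.3), control spots at weight 0. Control spots and 0 to 74 outlier spots per array were left out, the 2 spots per probe were averaged, and ratios were turned to treated over vehicle. Of 21900 probes, 16085 were kept, for being above background in either dye throughout a compound's arrays. The brightest probe stood for a gene. Names came from the array, updated through the RefSeq table of GRCr8 by symbol, older symbol, gene ID or record; 11736 probes had no gene name. The chromosomes, older symbols and the pseudogene label given above are from that table, and the promoter coordinates are also from GRCr8.

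All arrays were fitted together (lmFit, eBayes, 18 residual degrees of freedom), with classes fitted separately (duplicateCorrelation within compound, 0.58). The fit was tested on simulated data. Per the labels, each compound had its own control group of 4 rats, which was pooled. The number of arrays limits the precision. The members and gene lists were chosen with earlier results of these data known. The text names all member probes, up to 4 called genes with the largest change per list and compound, 3 like genes per member, and Cyp3a23-3a1. Other carboxylesterases, Nr1i3 and Cyp2b3 were named after their values were seen. Nr1i2 was named as the listed regulator without a value, and Cyp2b1 and Cyp2b2 as textbook CAR genes without one. Alternatives were other scaling, background, filter, probe and prior choices, a replicate block and leaving out rats.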

Additional observations from a re-analysis of the deposited data

Results flagged for a closer look

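The Ces1d ratio of the fourth monuron rat, at -0.53, stood apart from the other 3 monuron rats, which lay between -0.40 and -0.38. Its gap to the nearest rat took up 0.877 of the group's range, above Dixon's 95% critical value of 0.829 for 4 samples. On Ces1d probe 2, of the same sequence, that rat read -0.48 and the others -0.46, -0.45 and -0.42. Of 30 groups of 4 rats examined, this was the 1 that passed, and chance alone passes about 1 in 20 groups.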

How the results depend on the processing

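The 9 calls of esterases against vehicle became 7 without background correction and 23 with adjusted p alone and ranged from 8 to 9 with 1 rat left out. The 4 calls against the other 5 compounds became 2 with median centring, 24 with adjusted p alone and 12 at 1.5-fold, and ranged from 2 to 4 with 1 rat left out. The 2 calls within a scan day became 10 and 6 with adjusted p alone and at 1.5-fold, and ranged from 2 to 3. The 2 calls among other esterases became 14 with median centring, 4 with the scanner log ratio, 4 with the series table, 52 with adjusted p alone and 7 at 1.5-fold, and ranged from 1 to 3. The 26 calls among CAR and PXR genes became 44 with median centring, 99 with adjusted p alone and 52 at 1.5-fold, and ranged from 25 to 27. The 2 calls among regulators became 11 with median centring, 60 with adjusted p alone and 11 at 1.5-fold, and ranged from 1 to 2. The class comparison had 0 calls in every setting, leave-one-out included. Ephx1 under 1-amino-2-methylanthraquinone turned to -0.17 with median centring; the cause was not tested. Over all genes, calls were 922 higher and 983 lower with the scanner log ratio, 920 and 965 with the series table, and 257 and 296 without background correction, against 427 and 412. No called esterase value changed sign in any setting. Replicate numbers did not pair the rats (correlations of deviations from -0.26 to 0.39), and a replicate block gave 428 higher and 413 lower calls over all genes, with 9, 4, 2, 2, 26, 2 and 0 calls for the results above. Each ratio rests on 1 pool, so the vehicle rats' spread is not in any value.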
